A study of Mus musculus with 8 samples.

Results

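The imprinted growth genes described here are 10 mouse genes chosen by name: Igf2, H19, Meg3, Dlk1, Peg3, Plagl1, Cdkn1c, Grb10, Igf2r and Mest. All 10 were found once in each of the deposited gene tables, among 47729 genes in the table of neural stem cells (NSCs) and 40562 in the table of astrocytes. RNA was sequenced from primary cultures of wild type (WT) mice and of S89G-DMP1 mice, a knock-in line in which a serine of the extracellular matrix protein DMP1 is replaced by glycine so that its glycosaminoglycan chain can no longer be attached. The question behind the comparison was how loss of DMP1 glycosylation alters the transcriptome of these cells. There were 4 groups, all of strain C57BL/6 and labelled as 10 weeks old: 1 WT and 1 S89G-DMP1 library of astrocytes from cortex, grown in DMEM with 10% FBS, and 3 WT and 3 S89G-DMP1 libraries of NSCs from the sub-ventrical zone (as labelled), grown as neurospheres in DMEM/F12 with N2. The labels name no treatment, and the methods give another age, 3 months, for mice used for astrocyte culture. The knock-in allele was made by homologous recombination in embryonic stem cells, and its selection cassette was taken out with a recombinase. The labels do not say whether the sequenced mice were homozygous, or whether the 3 NSC libraries of a genotype came from separate mice, so the p-values below measure the spread between these libraries, which may be technical.

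Imprinted genes are expressed mainly from the allele inherited from a particular parent, and in mammals many of them set the pace of fetal and postnatal growth. Paternally expressed genes such as Igf2, Dlk1, Peg3, Plagl1 and Mest tend to favour growth, while maternally expressed genes such as H19, Cdkn1c, Grb10 and Igf2r tend to restrain it. In the brain several of them are used by neural stem cells and by glia, and their dosage is known to affect stem cell maintenance. The tables hold reads per gene and not per allele, so all values below are total transcript levels and say nothing of imprinting itself.

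The genes lie in 8 imprinted domains of the mouse genome (build GRCm38). Igf2 (chr7:142650766-142666816, minus strand) and H19 (chr7:142575529-142578143, minus strand) are neighbours, as are Dlk1 (chr12:109452823-109463336, plus strand) and Meg3 (chr12:109541001-109571726, plus strand). Cdkn1c (chr7:143458339-143461050, minus strand) lies in the domain of Kcnq1ot1, and Peg3 (chr7:6703892-6730431, minus strand) in a separate domain of the same chromosome. Igf2r (chr17:12682406-12769664, minus strand), Grb10 (chr11:11930508-12038683, minus strand), Plagl1 (chr10:13060504-13131694, plus strand) and Mest (chr6:30723547-30748465, plus strand) each lie in a domain of their own. H19 and Meg3 are long noncoding RNAs and the other 8 genes encode proteins. The use of strand in the counting is not stated. The exons of Mest share 912 bases with those of the antisense gene Copg2, so reads from that stretch cannot be told apart. Copg2 itself differed little between genotypes, with a log2 ratio of 0.16 in astrocytes and, in NSCs, a log2 fold change of -0.11 (SE 0.094, Benjamini-Hochberg adjusted p = 0.506 in edgeR's quasi-likelihood test). The gene span of Igf2r overlaps its antisense RNA Airn, with 0 shared exon bases.

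Promoter windows of RefSeq (GRCm38.p6), running from 250 bases before to 50 after a transcription start, were found for 8 of the 10 genes, 15 windows in all. The letters TGCCGC, the core recognised by the imprint-protecting zinc finger protein ZFP57 when methylated, were searched on both strands. They occurred in 6 of the 15 windows, against 11.6% of all 32851 windows. By gene, 5 of the 8 held a match (Mest, Plagl1, Meg3, Grb10 and Igf2), for which no share over all genes was taken. The letters hold a CpG, and the windows with a match had 13 to 45 CpG. The part of CpG content in this share was not tested. Several of these genes have more than 1 window, and 2 of the windows of Mest overlap. A window of Mest, chr6:30737800-30738099 on the plus strand, held 2 matches and 17 CpG dinucleotides, and that of Plagl1, chr10:13090582-13090881 on the plus strand, held 1 match and 26 CpG. The window of Igf2r, chr17:12769657-12769956 on the minus strand, held 34 CpG and 0 matches. The median over all windows was 7 CpG. The 3 windows are printed because Mest and Plagl1 stood far apart between the astrocyte libraries and Igf2r had the largest called difference in NSCs. Capitals mark the matches, which here lie on the opposite strand and so read GCGGCA.
Mest: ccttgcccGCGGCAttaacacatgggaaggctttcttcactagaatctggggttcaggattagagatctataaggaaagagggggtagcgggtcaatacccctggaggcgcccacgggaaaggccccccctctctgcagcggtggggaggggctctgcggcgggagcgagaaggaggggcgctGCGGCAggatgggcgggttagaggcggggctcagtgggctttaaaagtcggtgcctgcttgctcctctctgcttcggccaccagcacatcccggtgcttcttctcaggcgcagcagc
Plagl1: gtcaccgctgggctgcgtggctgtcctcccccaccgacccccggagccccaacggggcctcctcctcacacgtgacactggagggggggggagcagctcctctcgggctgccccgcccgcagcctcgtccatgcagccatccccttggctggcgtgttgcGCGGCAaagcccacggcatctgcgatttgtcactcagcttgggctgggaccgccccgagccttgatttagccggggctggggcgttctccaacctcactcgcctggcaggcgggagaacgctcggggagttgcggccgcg
Igf2r: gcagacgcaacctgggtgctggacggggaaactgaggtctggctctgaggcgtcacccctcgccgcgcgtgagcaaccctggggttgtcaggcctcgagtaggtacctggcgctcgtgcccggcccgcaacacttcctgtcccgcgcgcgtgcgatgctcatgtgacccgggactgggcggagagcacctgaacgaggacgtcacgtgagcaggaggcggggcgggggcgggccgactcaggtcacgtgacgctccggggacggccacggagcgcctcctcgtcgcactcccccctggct
The PLAGL1 motif GGGGCCCC was found in 1 of the 15 windows, that of Peg3, against 1.08% of all windows. The YY1 motif GCCATCTT was found in 0 of the 15, against 2.75%. These are matches of letters and not measured sites. GGGGCCCC reads the same on both strands, and no window of these genes held matches to more than 1 of the 3 motifs.

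H19 and Mest are also hosts of microRNAs. Their main mature forms are shown because the largest astrocyte differences fell on these hosts, and capitals mark the seed (bases 2 to 8), which selects the targets. The mature microRNAs were not measured by these libraries. They are miR-675-5p (chr7:142577112-142577133, minus strand, within the H19 exons) and miR-335-5p (chr6:30741314-30741336, plus strand, within Mest and outside its exons), both from RefSeq (GRCm38.p6), and they share no seed.
mmu-miR-675-5p: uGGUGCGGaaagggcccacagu
mmu-miR-335-5p: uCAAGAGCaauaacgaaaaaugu

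Between 2354615 and 2588130 reads were counted on genes per NSC library. The astrocyte libraries held 14008670 (WT) and 13016924 (S89G-DMP1). Counts were divided by the library total after TMM scaling, and are given as CPM. Dmp1, the gene that carries the mutation, had 16 to 21 counts in WT and 3 to 6 in S89G-DMP1 NSCs, and 2 and 119 counts in WT and S89G-DMP1 astrocytes. Because the mutation is a change of a codon, these counts do not check the labels. The astrocyte libraries also stood apart in sex-linked RNA. WT astrocytes held 12172 counts of Xist and 0 of the Y-linked Ddx3y, and S89G-DMP1 astrocytes 74 and 1277, so sex and genotype cannot be told apart there. All 6 NSC libraries held both, with 2718 to 3001 counts of Xist and 45 to 77 of Ddx3y, while the Y-linked Uba1y had 58 to 68 counts in WT and 0 to 3 in S89G-DMP1 NSCs.

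The label astrocyte was checked against marker genes. The WT astrocyte library had only 90 counts of Gfap (the intermediate filament used to identify the cultures), 8 of Aqp4 (the water channel of end feet) and 8 of Slc1a3 (a glutamate transporter). The S89G-DMP1 library had 901, 4051 and 3877 counts of these genes. Other markers of the list were present in WT, such as Gja1 at 1165 counts and Sox9 at 539, and S100b was higher there, at 64 counts against 30. The S89G-DMP1 library was at least 2-fold higher for 7 of 9 astrocyte markers and lower for 1. The list summed to 159.9 CPM with WT and to 1170 CPM with S89G-DMP1. Neural stem cell markers were at least 2-fold higher for 5 of the 7 counted, with a sum of 832.5 against 2156 CPM. Fibroblast and meningeal markers went the other way. They were at least 2-fold lower in S89G-DMP1 for 8 of the 11 counted, and they summed to 6300 CPM with WT and 2224 CPM with S89G-DMP1, of which Col1a1 alone made 1563 CPM in the latter. Mural markers had 1 of 6 higher and 3 lower (3255 against 3933 CPM), endothelial markers 1 of 5 higher and 3 lower (193.1 against 70.9 CPM), and neuron markers 2 of 3 higher and 1 lower (89.1 against 107.9 CPM). Oligodendrocyte lineage markers had 2 of 6 higher and 1 lower (159.5 against 274.1 CPM). Of these, Pdgfra made 138.6 CPM with WT and 6.95 CPM with S89G-DMP1, while Olig1 had 4 and 2691 counts and Olig2 3 and 782. Microglia markers had 2 of 5 higher (344.2 against 608.8 CPM). Choroid plexus markers were scarce, at 1.5 and 4.38 CPM. The part of cell makeup, sex and culture in the astrocyte differences below was not tested.

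**Figure D1:**
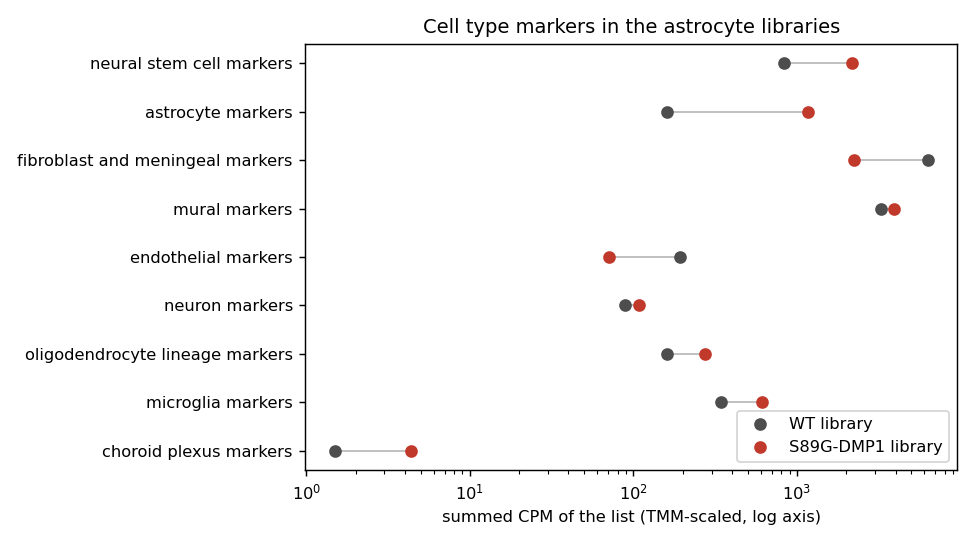
Summed CPM of each marker list (log axis) in the WT (grey) and S89G-DMP1 (red) astrocyte library, 1 library per genotype. Astrocyte markers summed to 159.9 CPM (WT) and 1170 CPM (S89G-DMP1), and fibroblast and meningeal markers to 6300 and 2224 CPM.

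The NSC libraries carried the markers of their label. Neural stem cell markers summed to 3882 to 4104 CPM in WT and 4325 to 4417 CPM in S89G-DMP1 NSCs, with 3 of 7 tested genes called higher and the other 4 not called. Astrocyte markers summed to 1688 to 1735 and 2199 to 2235 CPM, with 3 of 7 called higher, and neuron markers to 77.4 to 87.2 and 28.03 to 32.3 CPM, with 1 of 3 lower. The fall of the neuron sum came mainly from Syt1, the gene called lower, whose mean went from 61.15 (WT) to 7.58 CPM (S89G-DMP1). Tubb3 and Snap25, the other tested neuron markers, had log2 fold changes of 0.24 and 0.48 and were not called. Oligodendrocyte lineage markers summed to 3483 to 3753 and 3628 to 3796 CPM, with 1 of 4 lower. Fibroblast and meningeal markers were at 5.79 to 11.7 CPM over all 6 libraries with 7 of 12 at 0 throughout, mural markers at 1.98 to 4.78 CPM, and microglia markers at 0 to 0.425 CPM with 4 of 5 at 0 throughout. Endothelial markers were at 1.68 to 4.25 CPM in WT and 5.53 to 10.5 CPM in S89G-DMP1, with the 1 tested gene, Flt1, higher, and choroid plexus markers at 0 to 3.19 CPM. The shift of the astrocyte and stem cell markers and of Syt1 ran beside the NSC differences below, and its part in them was not tested.

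The NSC comparison asked whether the imprinted growth genes already differed between genotypes in stem cells. In NSCs 4 of the 10 genes, Mest, Peg3, Igf2r and Plagl1, had enough reads to be tested, and 3 of these passed the test: Peg3 rose in S89G-DMP1 NSCs, and Igf2r and Mest fell. The test was edgeR's quasi-likelihood test over 11194 genes at a Benjamini-Hochberg adjusted p of 0.05. Over all tested genes 7.07% were called higher and 8.76% lower, or 15.8% in either direction, and the 2 genotypes did not overlap in 30.7%. The tested genes passed the filter on their level in either genotype, so the 4 are not a sample of the 10. Their median log2 fold change was -0.20, beside 0.00 over all genes. All 3 differences were under 1.5-fold.

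Peg3 encodes a zinc finger protein that acts in cell death and growth pathways and is abundant in neural cells. It was measured at 266.3, 224.6 and 240.4 CPM in the WT libraries and at 304.2, 303.6 and 310.8 CPM in the S89G-DMP1 libraries. Every S89G-DMP1 library lay above every WT library, and the S89G-DMP1 libraries were closer together than the WT libraries. The log2 fold change was 0.33 (SE 0.061, adjusted p = 3.62e-05 by edgeR's quasi-likelihood test), or 1.26-fold. Leaving out each library in turn gave 0.27 to 0.40, past the threshold in all 6 fits. The call was lost with limma on the deposited TPM (adjusted p = 0.221 with either pseudocount).

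Igf2r encodes the receptor that carries IGF2 to the lysosome for breakdown and also sorts lysosomal enzymes. It stood at 102.6, 116.6 and 103.9 CPM in WT and at 78.3, 83.3 and 83.3 CPM in S89G-DMP1 NSCs. The groups did not overlap, with the highest S89G-DMP1 library well below the lowest WT library. The log2 fold change was -0.40 (SE 0.085, adjusted p = 2.88e-04 by edgeR's quasi-likelihood test), a level 0.757 times that of WT, and it ranged from -0.43 to -0.34 when each library was left out in turn. With limma on the deposited TPM the call was lost (adjusted p = 0.134 for log2(TPM + 1) and 0.126 for log2(TPM + 0.1)). Its ligand gene Igf2 was nearly silent in these cells, as given below. Airn, the paternal antisense RNA that silences the paternal Igf2r copy in many tissues, had too few reads to be tested in NSCs. The 3 tested genes whose log2 CPM followed Igf2r most closely over the 6 NSC libraries were Ap4m1, with a Pearson r of 0.998, Trpm5, with 0.996, and Tm2d2, with 0.993, out of 11193 genes. These values are a description, since the 6 libraries share the genotype split and the depth of each library.

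Mest, also called Peg1, encodes a membrane enzyme of the alpha/beta hydrolase fold and marks growing mesenchymal and neural tissue. It was the most abundant of the 10 genes in NSCs, with 413.6, 454.7 and 421.3 CPM in WT and 377.0, 386.0 and 386.1 CPM in S89G-DMP1. The groups did not overlap, although the gap between them was smaller than the spread of the WT libraries. The log2 fold change was -0.17 (SE 0.055, adjusted p = 0.0271 by edgeR's quasi-likelihood test), which is 0.891 times the WT level. The call was lost with DESeq2 (adjusted p = 0.111), with limma on the deposited TPM (adjusted p = 0.185 and 0.189) and when S89G-DMP1 library 1 (log2 fold change -0.15, adjusted p = 0.1), S89G-DMP1 library 2 (-0.17, adjusted p = 0.0783) or WT library 2 (-0.13, adjusted p = 0.182) was left out of the edgeR fit. Its direction was the same in each of these fits.

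Plagl1, also called Zac1, encodes a zinc finger transcription factor that halts the cell cycle and regulates other imprinted genes. It had 13.8, 12.4 and 13.5 CPM in WT and 10.0, 9.78 and 13.6 CPM in S89G-DMP1 NSCs. The third S89G-DMP1 library lay within the WT range and the other two below it. The log2 fold change was -0.24 (SE 0.21) and did not pass edgeR's quasi-likelihood test (adjusted p = 0.511).

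**Figure D2:**
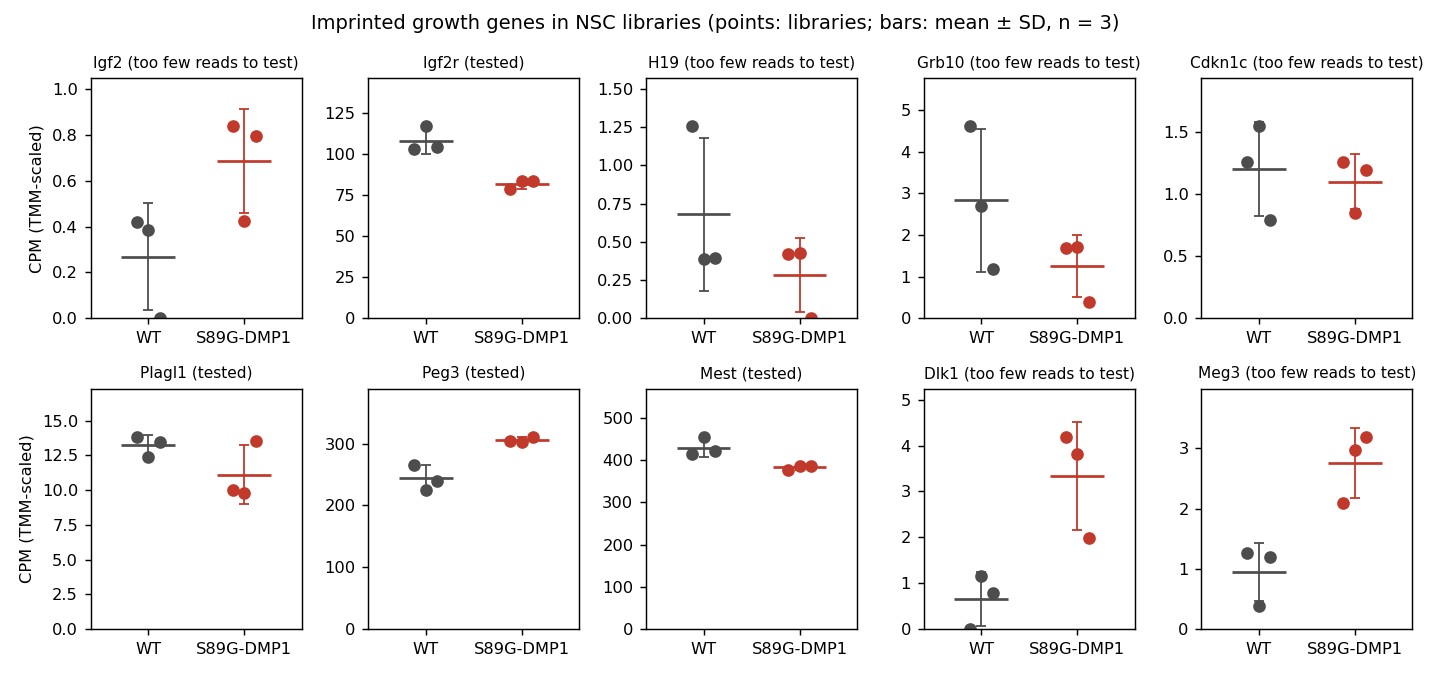
CPM of the 10 genes in each NSC library (points, 3 WT in grey and 3 S89G-DMP1 in red), with the mean and SD of each genotype. Each panel has its own axis from 0. Peg3, Igf2r and Mest separate the genotypes without overlap at 78.3 CPM and above, and 6 genes stay under 5 CPM in every library.

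The other 6 genes, Igf2, H19, Meg3, Dlk1, Cdkn1c and Grb10, had between 0 and 11 counts in every NSC library and did not pass the filter on low counts. Dlk1, a membrane-bound and secreted member of the Notch ligand family that acts on adult neural stem cells, had 0, 3 and 2 counts in WT and 10, 9 and 5 in S89G-DMP1 NSCs. Summed over libraries and scaled by their totals, this is a ratio of 4.96 with a 95% interval of 1.86 to 16.7 that covers counting error only. Meg3, the long noncoding RNA of the same domain, had 3, 1 and 3 counts in WT and 5, 7 and 8 in S89G-DMP1, a ratio of 2.96 (1.20 to 8.27). In both genes every S89G-DMP1 library lay above every WT library. Among the 2120 untested genes with at least 15 counts in all, 15.6% had groups that did not overlap. When all genes with at least 1 count were kept, edgeR's quasi-likelihood test called Dlk1 higher (log2 fold change 2.23, adjusted p = 0.00578) and did not call Meg3 (1.52, adjusted p = 0.108).

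Grb10, an adaptor that damps signalling from the insulin and IGF1 receptors and in neurons uses its paternal copy, had 11, 7 and 3 counts in WT and 4, 4 and 1 in S89G-DMP1 NSCs, and the groups overlapped. The ratio of its sums was 0.443 (0.179 to 1.01). Cdkn1c, the cell cycle inhibitor p57, had 3, 4 and 2 counts in WT and 3, 2 and 3 in S89G-DMP1. Igf2, the fetal growth factor, had 1, 1 and 0 counts in WT and 2, 1 and 2 in S89G-DMP1, and H19, the noncoding RNA beside it, had 3, 1 and 1 and 1, 1 and 0. Differences in these 4 genes were not detectable at this depth. With all genes kept, edgeR's quasi-likelihood test gave adjusted p = 0.263 for Grb10, 0.98 for Cdkn1c, 0.65 for Igf2 and 0.65 for H19.

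To order the genes by level, CPM was divided by gene length in kilobases, giving RPKM, with the lengths implied by the astrocyte table. In WT NSCs Mest came top at 402.9 ± 20.5 RPKM (SD, n = 3), followed by Peg3 at 55.8 ± 4.82, Igf2r at 42.3 ± 3.03 and Plagl1 at 13.5 ± 0.785. The ranges of these 4 did not overlap. Grb10 followed at 1.41 ± 0.849 and overlapped with Cdkn1c at 0.627 ± 0.198, and the remaining 4 genes lay between 0.134 and 0.536 RPKM with overlapping neighbours. S89G-DMP1 NSCs held the same top 4, with Mest at 358.3 ± 4.97, Peg3 at 70.0 ± 0.939, Igf2r at 32.0 ± 1.15 and Plagl1 at 11.3 ± 2.15 RPKM. Below them Dlk1 came to 1.66 ± 0.583 and Meg3 to 1.02 ± 0.215 RPKM, and their ranges overlapped. With the full exon length of each gene in place of these lengths the values were lower, such as 109.1 RPKM for Mest in WT, and the order of the top 4 was the same in both genotypes.

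The same was asked of the cultures labelled astrocytes, with 1 library per genotype and therefore no test. The WT library among them summed to 159.9 CPM of astrocyte markers and 6300 CPM of fibroblast and meningeal markers. All 10 genes were counted, and 5 were at least 2-fold higher in the S89G-DMP1 library: H19, Mest, Dlk1, Plagl1 and Cdkn1c. Meg3 was at least 2-fold lower, and Igf2, Peg3, Grb10 and Igf2r differed by less than 2-fold. Of the 15680 genes that reached 10 counts in a library, 17.3% stood 2-fold or more above WT and 12.8% as far below, together 30.1%. The median log2 ratio of the 10 genes was 1.22, beside 0.01 over all genes. Scaling by library size alone moved the median over all genes to 0.30, which turned the split of genes at least 2-fold apart from 2713 higher and 2010 lower to 3487 higher and 1515 lower. Intervals below cover counting error only, and PCR copies are not independent molecules. In bulk cultures, fewer cells of a type and less RNA per cell cannot be told apart.

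**Figure D3:**
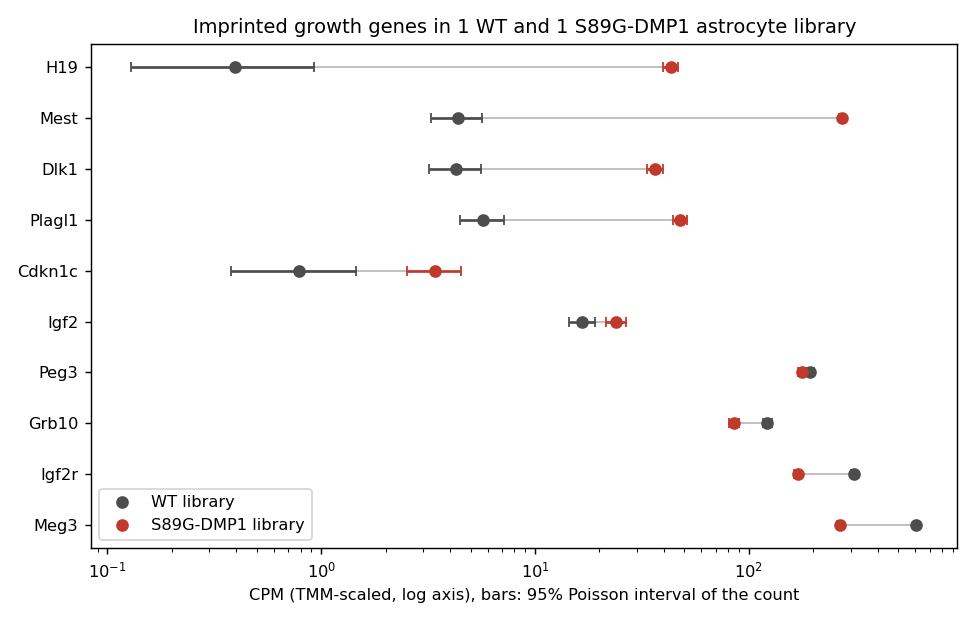
CPM of the 10 genes (log axis) in the WT (grey) and S89G-DMP1 (red) astrocyte library, with 95% Poisson intervals of each count. H19 and Mest stand farthest apart, with 0.395 against 43.1 CPM and 4.34 against 271.8 CPM.

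H19 had 5 reads in WT and 621 in S89G-DMP1 astrocytes, or 0.281 and 37.6 FPKM, the deposited level per gene length and library total. The scaled ratio was 109.3 (46.6 to 337.7), and 52 of the 15680 genes, H19 included, had a log2 ratio as high. Igf2, which shares its enhancers with H19 and is expressed from the opposite parental copy, had 210 and 345 reads, a ratio of 1.45 (1.21 to 1.72). The neighbours thus stood unequally apart, with log2 ratios of 6.32 for H19 and 0.53 for Igf2. These log2 ratios carry a prior count of 2, which the ratios with intervals leave out. With log2(FPKM + 1) the log2 ratios were 4.91 and 0.75, and with library size alone 6.57 and 0.82. The reads of H19 include any from the precursor of miR-675 in its exons.

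Mest had 55 and 3913 reads, or 3.68 and 281.5 FPKM. Its ratio was 62.6 (48.0 to 83.2), with 76 genes as high or higher, Mest included. In the S89G-DMP1 astrocyte library Mest reached 271.8 CPM, and in the NSC libraries it lay between 377.0 and 454.7 CPM. The tables were normalised separately, so these levels are set side by side without a test. The WT astrocyte library, at 4.34 CPM, was the low value among all 8 libraries.

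Dlk1 had 54 and 525 reads in WT and S89G-DMP1 astrocytes (1.92 and 20.1 FPKM), a ratio of 8.55 (6.46 to 11.5). Plagl1 had 72 and 688 reads (5.25 and 53.9 FPKM), a ratio of 8.41 (6.59 to 10.9). Both exceeded 8-fold, a size reached in the higher direction by 4.44% of all counted genes. Cdkn1c was scarce in each library, with 10 and 49 reads (0.373 and 1.97 FPKM), and its ratio of 4.31 carried a wide interval of 2.16 to 9.54. Of these 5 genes, H19, Dlk1 and Cdkn1c had under 5 CPM in every NSC library of either genotype.

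Meg3 had the highest deposited FPKM of the 10 genes in WT astrocytes, with 7665 reads there and 3861 with S89G-DMP1 (202.4 and 109.7 FPKM). Its ratio was 0.443 (0.426 to 0.461), a log2 ratio of -1.17 that shrank to -0.88 with library size alone, within 2-fold. Igf2r had 3930 and 2435 reads and a ratio of 0.545 (0.518 to 0.574). Grb10 had 1545 and 1227 reads and a ratio of 0.699 (0.648 to 0.754). Peg3 had 2449 and 2547 reads and a ratio of 0.915 (0.865 to 0.968). The sign for Peg3 turned with the scale, from a log2 ratio of -0.13 with TMM to 0.16 with library size alone, so no direction can be given for it.

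By deposited FPKM the order of levels in the WT astrocyte library was Meg3 (202.4), Igf2r (110.1), Grb10 (54.7), Peg3 (40), Igf2 (7.495), Plagl1 (5.25), Mest (3.68), Dlk1 (1.92), Cdkn1c (0.373) and H19 (0.281). In the S89G-DMP1 library Mest came top (281.5), then Meg3 (109.7), Igf2r (73.4), Plagl1 (53.9), Grb10 (46.7), Peg3 (44.8), H19 (37.6), Dlk1 (20.1), Igf2 (13.3) and Cdkn1c (1.97). Parts of this order depended on the length used. With full exon lengths, Meg3 and Igf2r were level in WT at 30.3 and 30.1 RPKM, and Igf2r stood above Meg3 in S89G-DMP1 at 20.1 against 16.4. H19 came between them in S89G-DMP1 at 19.4 RPKM. Plagl1 dropped below Dlk1 there, at 6.76 against 7.13. In WT Plagl1 (0.657) dropped below Mest (0.995) and Dlk1 (0.681). Mest was the top gene of the S89G-DMP1 library with either length.

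**Figure D4:**
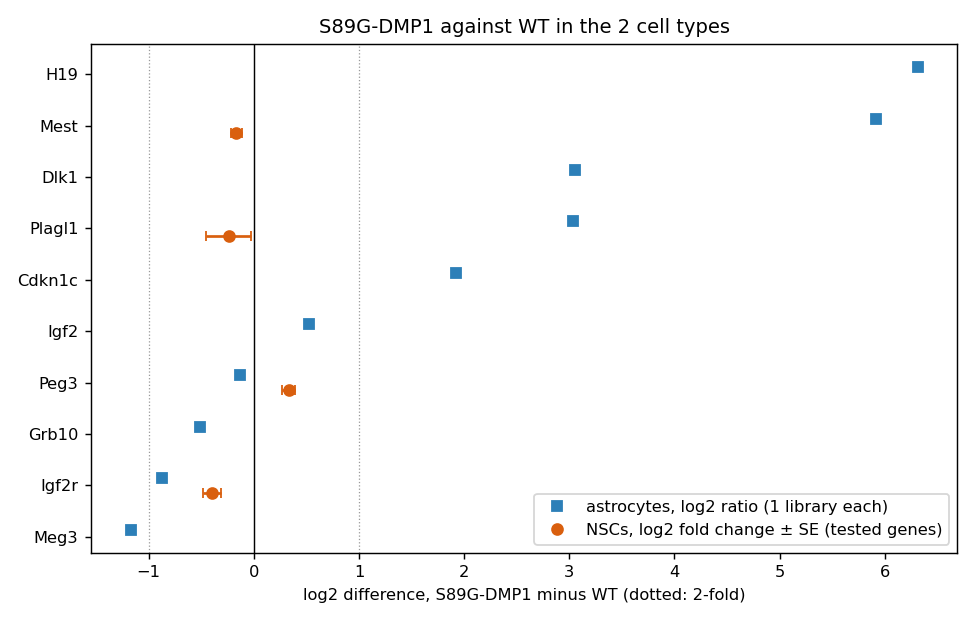
Log2 difference of each gene, S89G-DMP1 minus WT, in astrocytes (squares, 1 library per genotype, no error shown) and in NSCs (circles with SE, 4 tested genes, 3 libraries per genotype). Mest stands at 5.92 in astrocytes and -0.17 in NSCs, and Igf2r lies below 0 in both, at -0.88 and -0.40.

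The WT astrocyte library held more fibroblast and meningeal than astrocyte markers (6300 against 159.9 CPM), and its part in what follows was not tested. Set side by side, the NSC and astrocyte libraries differed in which of the 10 genes stood high and in how the genotypes compared. Igf2r was lower in S89G-DMP1 in both, with a log2 fold change of -0.40 in NSCs and a log2 ratio of -0.88 in astrocytes that was -0.58 with library size alone. Mest was slightly lower in S89G-DMP1 NSCs and 62.6-fold higher in the S89G-DMP1 astrocyte library. Dlk1 was higher in S89G-DMP1 in both tables, though with 5 to 10 counts per S89G-DMP1 library in NSCs. Meg3 was lower in the S89G-DMP1 astrocyte library and higher, at 5 to 8 counts against 1 to 3, in S89G-DMP1 NSCs. No test of the difference between cell types was possible with 1 astrocyte library per genotype.

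The wider family of imprinted genes gives the setting. Over all tested NSC genes 7.07% rose and 8.76% fell in S89G-DMP1. A list of 44 other imprinted genes had 24 tested in NSCs, of which 2 rose and 5 fell, with a median log2 fold change of -0.10. Those that rose were Commd1 (0.50, a trafficking factor whose intron hosts an imprinted gene) and Gnas (0.45, the stimulatory G protein alpha subunit). Those that fell included Sgce (-0.45, a sarcoglycan), Cd81 (-0.43, a tetraspanin), Tssc4 (-0.41) and Peg10 (-0.39, a retrotransposon-derived gene), and the other was Nnat (-0.34, neuronatin). In astrocytes 34 of the list were counted, of which 4 were higher and 9 lower by 2-fold or more, with a median log2 ratio of -0.09. Over all counted genes 17.3% were as far higher and 12.8% as far lower. The 4 higher genes were Rasgrf1 (5 and 295 reads, log2 ratio 5.25), Peg10 (807 and 5488 reads, 2.58), Ppp1r9a (1.84) and Nnat (1.56). Among the lower genes, Slc22a18 had 419 and 23 reads (-4.25), Ascl2 17 and 2 reads (-2.38), Impact 4613 and 1425 reads (-1.88) and Asb4 21 and 5 reads (-1.87). With library size alone the median of the list turned to 0.20, with 7 higher and 8 lower, and the gene no longer 2-fold lower was Rian.

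Within a domain some neighbours of the 10 genes stood apart from them in astrocytes and others differed little between genotypes. In the Dlk1-Meg3 domain, Dlk1 was higher in S89G-DMP1 while the maternally expressed noncoding RNAs Meg3 (-1.17), Rian (3944 and 1935 reads, -1.21) and Mirg (143 and 48 reads, -1.72) were all lower. Rtl1, a paternally expressed gene of the same domain with a maternal antisense transcript, had 37 and 12 reads (-1.65), and Dio3, which inactivates thyroid hormone, had 10 and 22 (0.84). In NSCs Rian, like Meg3 and Dlk1, was scarce and did not overlap between genotypes. It had 4, 2 and 2 counts in WT and 10, 11 and 9 in S89G-DMP1, a ratio of 3.88 (1.74 to 9.79, counting error only). Among untested genes with at least 15 counts in all, 15.6% did not overlap. Mirg had 1 count in all in each genotype of NSCs, and Rtl1 and Dio3 had 0. With library size alone in astrocytes, Meg3 and Rian were no longer 2-fold lower, though their sign was the same. In the Kcnq1ot1 domain, Cdkn1c had a log2 ratio of 1.92, on 10 and 49 reads, and Slc22a18 one of -4.25. Kcnq1ot1, the noncoding RNA that silences the domain on the paternal copy, stood at 0.65. Cd81 (7352 and 7625 reads, -0.13), Tssc4 (-0.25) and Nap1l4 (0.02) of this domain differed little. Peg3 and its neighbour Zim1 (39 and 63 reads, 0.49) were both within 2-fold, as was Airn (56 and 85 reads, 0.41) beside Igf2r.

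**Figure D5:**
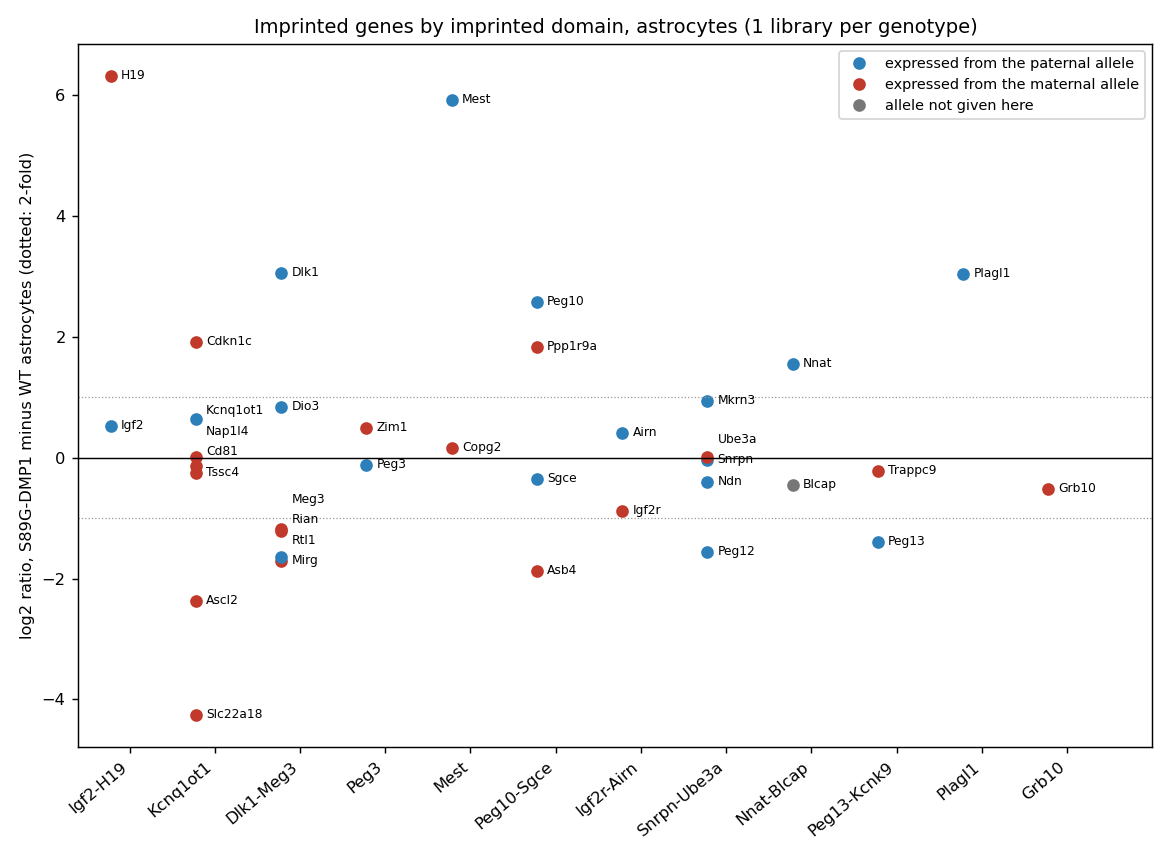
Log2 ratio (S89G-DMP1 minus WT, 1 astrocyte library per genotype) of the counted imprinted genes in 12 imprinted domains, coloured by the parental allele that is known to be expressed, with dotted lines at 2-fold. In the Dlk1-Meg3 column Dlk1 lies at 3.05 and Meg3, Rian and Mirg between -1.17 and -1.72.

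The partners of the growth genes were counted from lists. Over all tested NSC genes 7.07% were called higher and 8.76% lower. Of 16 genes of IGF and insulin signalling, 12 were tested in NSCs, where 6 fell and the other 6 were not called. Their median log2 fold change was -0.17. Those that fell included Igf1 (-1.36, the postnatal growth factor), Igfbp3 (-0.66) and Igfbp5 (-0.53), both IGF binding proteins. Igf1r (-0.32), the receptor through which IGF1 and IGF2 signal, fell too. In astrocytes 5 of the 16 were at least 2-fold higher and 4 lower, with a median log2 ratio of 0.16. Over all counted genes 17.3% were at least 2-fold higher and 12.8% lower. The binding proteins stood on both sides in astrocytes, with Igfbp3 at 4.16 and Igfbp5 at 3.88 against Igfbp6 at -5.33 and Igfbp7 at -4.53. Igfbp3 and Igfbp5 were thus lower in S89G-DMP1 NSCs and higher in the S89G-DMP1 astrocyte library.

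Among 12 factors that maintain imprints, 10 were tested in NSCs and 1 rose, Ctcf (0.23), the insulator protein that binds the Igf2-H19 control region. The median of this list was 0.11. In astrocytes 10 were counted and 1 was at least 2-fold higher, Uhrf1 (2.17), which recruits the maintenance methyltransferase to replicating DNA, or 3 with library size alone. Of the 6 other cyclin-dependent kinase inhibitors, Cdkn2a fell in NSCs (-0.96) and 5 were not called, while Cdkn2c (2.06) and Cdkn1b (1.70) were at least 2-fold higher in astrocytes. Of 10 Notch ligands and receptors beside Dlk1, 6 were tested in NSCs, where Jag1 (-0.57) and Notch1 (-0.26) fell and the other 4 were not called. In astrocytes Notch1 (2.44) and Dlk2 (1.61) were at least 2-fold higher and Notch4 (-3.31) and Jag1 (-2.78) lower, among 7 counted, and with library size alone 4 were higher and 2 lower.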

How the data were processed

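Total RNA of cultured astrocytes (2 libraries) and NSCs (6 libraries) was sequenced. Groups were taken from the sample labels. For astrocytes the authors deposited raw read counts and FPKM, and for NSCs raw read counts and TPM. The submitters' processing notes name Bowtie2 2.0.6 and TopHat2 2.0.9 for astrocytes and HISAT2, StringTie and featureCounts with build GRCm38 for NSCs. The astrocyte build and counter are not given in the sources used here. Deposited TPM listed 18 of 5804 well-counted NSC genes at 0 in all libraries, so TPM served only for alternatives.

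Counts were analysed in R 4.3.3 with edgeR 4.0.16: filterByExpr (minimum count 10), TMM, and a quasi-likelihood test on genotype without covariates. DESeq2 1.42.0 and limma 3.58.1 gave alternatives. Astrocyte log2 ratios used a prior count of 2 and genes that reached 10 counts in a library. All 10 genes are named, and from other lists up to 4 genes per comparison with the largest absolute log2 value among those called or at least 2-fold apart, besides neighbours, markers and genes that show a check. The genes of the Dlk1-Meg3, Kcnq1ot1, Peg3 and Igf2r domains, Nnat, and Dmp1, Xist, Ddx3y and Uba1y were added outside that rule, with their values known. The 10 genes and all lists were chosen with earlier results of these data known. The NSC test was checked on simulated counts. Within a genotype, all pairs of NSC libraries differed by more than counting noise (chi-square per gene 1.07 to 1.51, against 3.17 to 4.06 between genotypes). Each was counted as a sample because the labels list it as one, and this spread does not show that they came from separate mice or cultures.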

Additional observations from a re-analysis of the deposited data

Results flagged for a closer look

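The Mest and Meg3 values lay on opposite sides of 0 in the cell types. Mest had a log2 ratio of 5.92 in astrocytes. In NSCs every S89G-DMP1 library lay below every WT library for Mest, at 0.891 times the WT level. The genotypes likewise did not overlap in 30.7% of all tested NSC genes. The call of Mest in NSCs was lost with DESeq2's Wald test (adjusted p = 0.111) and with limma on the deposited TPM. It passed edgeR's quasi-likelihood test in 3 of the 6 fits that left out 1 library. Meg3 had a log2 ratio of -1.17 in astrocytes, which was -0.88 and so within 2-fold with library size alone. In NSCs every S89G-DMP1 library lay above every WT library for Meg3, but at 1 to 8 counts per library, and edgeR's quasi-likelihood test without a filter did not call it (adjusted p = 0.108). Among untested genes with at least 15 counts in all, 15.6% did not overlap. With 1 astrocyte library per genotype, neither difference between cell types was tested.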

How the results depend on the processing

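In NSCs, against 791 higher and 981 lower genes overall and 1 higher and 2 lower among the 10 growth genes, DESeq2 gave 348 higher and 503 lower genes, with 1 growth gene lower. limma on log2(TPM + 1) gave 38 and 107 genes and on log2(TPM + 0.1) 31 and 85, each with 0 growth genes in either direction at an adjusted p of 0.05 and 1 higher and 2 lower at an unadjusted 0.05. There Peg3, Igf2r and Mest had the same sign, with adjusted p of 0.126 to 0.221. Requiring at least 1.5-fold left 130 and 322 genes and 0 growth genes. Without a filter on low counts 2 growth genes were higher, the second being Dlk1. Leaving out each library in turn gave 571 to 737 higher and 770 to 927 lower genes, with 1 growth gene higher and 1 to 2 lower. Library size alone, RLE size factors and at least 10 counts in every library changed no call of a growth gene.

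The replicate numbers do not pair the NSC libraries (correlations of deviations 0.0279, -0.00994 and -0.0168). With the replicate block there were 828 higher and 1015 lower genes, and 1 and 2 growth genes.

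In astrocytes, against 2713 higher and 2010 lower genes and 5 and 1 growth genes, the number of lower growth genes was 0 with library size alone, log2(FPKM + 1), log2(FPKM + 0.1) and a 4-fold threshold, and 2 at 1.5-fold. log2(FPKM + 1) gave 1020 lower genes, at least 10 counts in both libraries 1669 higher, 1.5-fold 3320 lower, and 4-fold 1354 higher and 813 lower. Peg3 reversed to 0.16 with library size alone, 0.16 with log2(FPKM + 1) and 0.16 with log2(FPKM + 0.1). The cause of these shifts was not tested beyond the smaller sets that the thresholds and filters leave. The lengths summed over all exons, an alternative chosen after seeing the data, lowered the NSC levels, as given for Mest.

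Depth limits 6 of the 10 genes in NSCs, and the astrocyte values carry counting error only.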
